A study of Rattus norvegicus with 6 samples.

Results

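Matrix metalloproteinases are secreted or membrane-bound zinc enzymes that cut collagens, laminins, proteoglycans and many non-matrix proteins. They are made as inactive precursors, and tissue inhibitors of metalloproteinases (the Timp genes) bind the active enzymes and block them. In skeletal muscle both take part in clearing and rebuilding the matrix around fibres. The genes described here are 6 metalloproteinases (Mmp2, Mmp3, Mmp9, Mmp10, Mmp13 and Mmp14) and 3 inhibitors (Timp1, Timp2 and Timp3). Members were chosen by symbol in the platform annotation: all 9 were found, each with a single probe set, among 18166 named genes.

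Their RNA was measured on 6 Affymetrix Rat Gene 2.0 ST arrays, which read each gene through a group of short oligonucleotides called a probe set. The cells were male rat stem cells, isolated from skeletal muscle by plating. Each library is 1 array, named by its title: cholesterol, fatty acid, LZ serum, OZ serum, and the controls titled high glucose and low glucose. Cholesterol was given at 100 mg/dl on a cyclodextrin carrier, and sodium palmitate is the fatty acid that the protocols name, with no dose. The labels give no strain, animal age, treatment time or number of animals, and do not give what LZ and OZ stand for, whether the controls held the carrier or which control goes with which lipid. Each lipid library was therefore read against both controls. With 1 array per group there is no replicate error and no test, and a difference is one between libraries, not between conditions.

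Values are intensities on a linear scale, with library medians from 104.6 to 109.2 over 36685 probe sets, and differences are log2 ratios of intensities. To be counted, a gene had to differ at least 2-fold, in 1 direction, from each reference library, and the value given is the difference from the nearer reference. The signal filter was a mean log2 of 6.74, the median of all values, and 11540 genes passed it. Of the 9 members, 8 passed. Mmp10 did not, with a mean of 5.76. Mmp13 passed at 6.85 only through the fatty acid library, since its mean over the other libraries was 6.62. As a check of the label, 8 of 9 mesenchymal progenitor markers were measured and all 8 passed the filter. Of 7 muscle progenitor markers 4 passed, Pax7, Des, Itga7 and Ncam1, and of all 18166 named genes 11540 did. Myf5 (5.96 to 6.18) and Myod1 (6.17 to 6.48), transcription factors of the muscle lineage, lay below the filter in every library.

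Mmp3, Mmp10 and Mmp13 lie in a run of metalloproteinase genes on rat chromosome 8, and are the members that exceeded both controls by the most in the fatty acid library. The RefSeq promoters of these 3 genes (build GRCr8, plus strand) are shown because each holds the AP-1 motif close to its start. AP-1 is the Jun and Fos transcription factor family, long known to act on promoters of this kind. Each line is the stretch of 250 bases that ends just before the annotated start. Capitals mark the AP-1 motif TGANTCA and the ETS motif AGGAAG, searched on both strands, and the TATA motif TATAAA, searched on the sense strand. No motif overlaps another in these stretches. The coordinates are chr8:12925031-12925280 for Mmp3, chr8:12974457-12974706 for Mmp10 and chr8:12782579-12782828 for Mmp13.
Mmp3: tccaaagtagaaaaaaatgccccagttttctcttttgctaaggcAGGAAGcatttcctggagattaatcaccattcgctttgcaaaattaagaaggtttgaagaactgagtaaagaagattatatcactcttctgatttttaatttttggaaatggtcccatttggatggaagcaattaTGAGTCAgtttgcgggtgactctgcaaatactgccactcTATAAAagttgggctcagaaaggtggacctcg
Mmp10: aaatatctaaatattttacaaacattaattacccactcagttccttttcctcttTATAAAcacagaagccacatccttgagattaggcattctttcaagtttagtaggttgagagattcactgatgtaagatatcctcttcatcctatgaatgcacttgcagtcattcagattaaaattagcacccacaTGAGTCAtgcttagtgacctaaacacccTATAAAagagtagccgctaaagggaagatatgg
Mmp13: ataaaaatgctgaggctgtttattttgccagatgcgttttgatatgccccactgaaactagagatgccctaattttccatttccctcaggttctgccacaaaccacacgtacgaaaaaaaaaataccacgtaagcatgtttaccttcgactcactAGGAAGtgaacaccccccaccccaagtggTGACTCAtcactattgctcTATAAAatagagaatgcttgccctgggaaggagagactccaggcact

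The AP-1 match starts 71 bases upstream of the annotated start in Mmp3, 61 in Mmp10 and 66 in Mmp13. A TATA match lies between it and the start in each, at 32, 33 and 47 bases upstream. Mmp10 has a TATA match at 196 as well. The ETS motif, bound by a family of factors that often act beside AP-1, is found in Mmp3 at 206 and in Mmp13 at 95 bases upstream, and has no match in Mmp10. The window searched was 300 bases, of which 50 lie after the start. Of all 33469 rat promoters in the table, 7.33% hold the AP-1 motif, 34.5% the ETS motif and 8.80% the TATA motif in a window of that length.

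The other 3 promoters found among the 9 members, those of Timp1, Timp2 and Timp3, have no exact match to TGANTCA in this window. AP-1 sites with other letters were not searched for, so their absence is not shown. Timp1 has ETS matches at 230 and 94 bases upstream. Entries for Mmp2, Mmp9 and Mmp14 were not found in the table. The motif is not confined to the members. Of 6 further metalloproteinase genes in the same run, 4 hold it too, as the next lines show with 10 bases on each side of the match in capitals.
Mmp12: acatcaacagTGAGTCAtattgaggat
Mmp1: ttgtcaaccaTGAGTCAcgtagcctct
Mmp7: agcatgagaaTGAGTCAccgattccca
Mmp20: atttgagacaTGAATCAtcacttgcag
These windows are at chr8:12866555-12866581, chr8:12943359-12943385, chr8:13132953-13132979 and chr8:13074173-13074199 of GRCr8, plus strand. Mmp1 has another AP-1 match at 242 bases upstream, and Mmp8 and Mmp27 have none. A match is a run of letters and not a measured binding site.

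**Figure D1:**
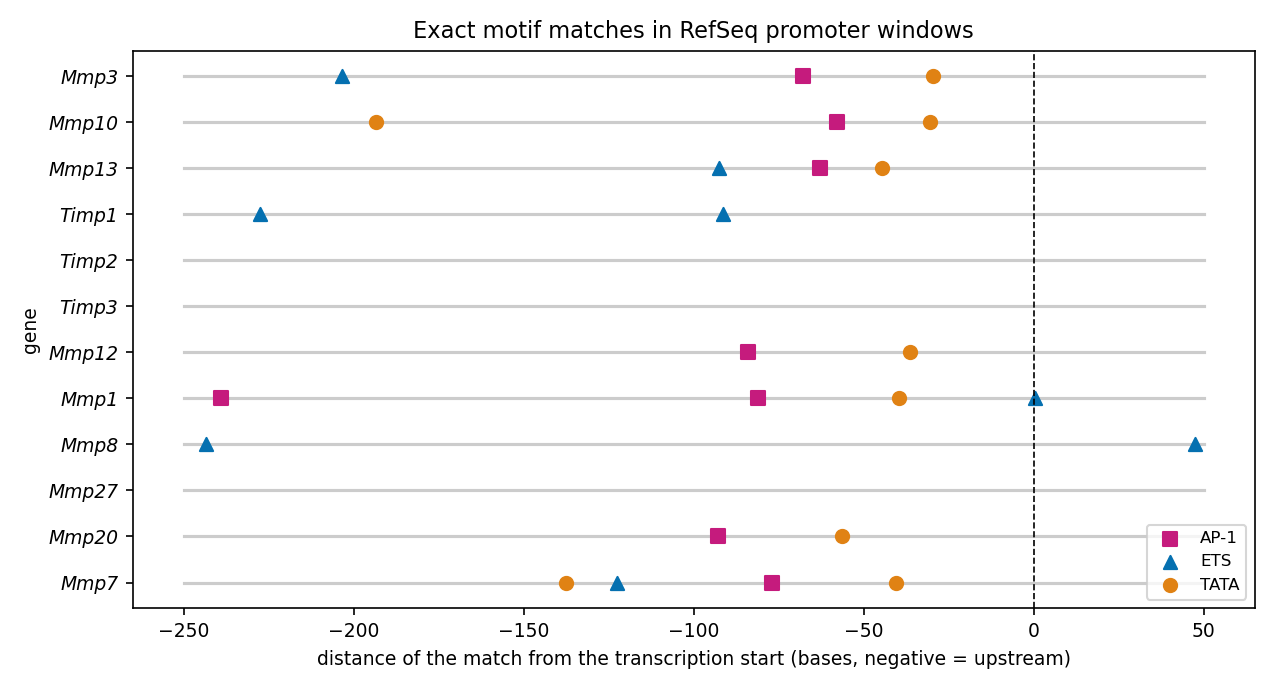
Exact matches to 3 motifs in RefSeq promoter windows, by distance in bases from the annotated transcription start, for the 6 members and 6 neighbouring genes with an entry. Exact AP-1 matches (TGANTCA) sit 61 to 71 bases upstream in Mmp10, Mmp13 and Mmp3, and are also present in Mmp12, Mmp1, Mmp20 and Mmp7. The Timp windows hold no exact match, and variant AP-1 sites were not searched for.

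The stromelysins, Mmp3 and Mmp10, cleave proteoglycans, laminin and fibronectin and can activate other metalloproteinase precursors. Mmp3 (probe set 17841872) had an intensity of 2342 in the high glucose control, 2278 in the low glucose control, 2154 with LZ serum, 2033 with OZ serum, 2392 with cholesterol and 7141 with fatty acid. The fatty acid library stood alone, and the others lay within a narrow band. It was 3.05-fold above the high glucose and 3.13-fold above the low glucose control, while the 4 libraries not titled for a lipid spanned 1.15-fold. The cholesterol library was 0.03 above the nearer control on the log2 scale, and this sign was lost under another scaling.

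Mmp10 (probe set 17841899) had intensities of 42.0 and 40.7 in the high and low glucose controls, 35.0 with LZ serum, 39.8 with OZ serum, 55.6 with cholesterol and 188.1 with fatty acid. As for Mmp3, the highest library was fatty acid and the next cholesterol, but for Mmp3 cholesterol led the nearer control by only 0.03 in log2. Fatty acid was 4.48-fold above the nearer control. All of its other values lay below the signal filter, 107.2 in intensity, so the size of this fold is less certain than that of Mmp3, and the member is left out of the counts. When 32 was added to each intensity before log2, it was 1.57 and not 2.16 on that scale. Mmp3 and Mmp10 are closely related in sequence, and whether each probe set also reads RNA of the other was not tested.

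Collagenase 3, the product of Mmp13, cuts fibrillar collagen. Mmp13 (probe set 17841846) had intensities of 119.0 in the high glucose control, 145.0 in the low glucose control, 79.3 with LZ serum, 69.1 with OZ serum, 98.6 with cholesterol and 252.6 with fatty acid. The fatty acid library was again highest, but the rest were less alike than for the stromelysins, with a 2.10-fold span over the libraries not titled for a lipid. Against the controls the fatty acid difference was 1.09 (high glucose) and 0.80 (low glucose) in log2, so it reached 2-fold against 1 of them. Both serum libraries were lower than both controls for Mmp13, by 0.58 at the least and 1.07 at the most in log2. No other member differed as much between serum and control libraries.

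The gene cluster put these differences side by side with those of neighbours. In RefSeq, the 10 protein-coding genes from Mmp13 to Mmp7 on chromosome 8 are all metalloproteinases, and 9 of them were measured. The 6 measured neighbours that are not members, Mmp12, Mmp1, Mmp8, Mmp27, Mmp20 and Mmp7, all lay below the signal filter in every library, from 4.36 to 6.31 in log2. Their differences between fatty acid and the nearer control ran from -0.19 to 0.24. Mmp3 with 1.61, Mmp10 with 2.16 and Mmp13 with 0.80 lay above that range, which was taken over the neighbours alone. At signals below the filter a difference is hard to read, so the neighbours are not shown to be unchanged. This set of neighbours was put together after the values were seen. As printed above, Mmp12, Mmp1 and Mmp7 carry the same AP-1 letters, TGAGTCA, as Mmp3 and Mmp10.

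**Figure D2:**
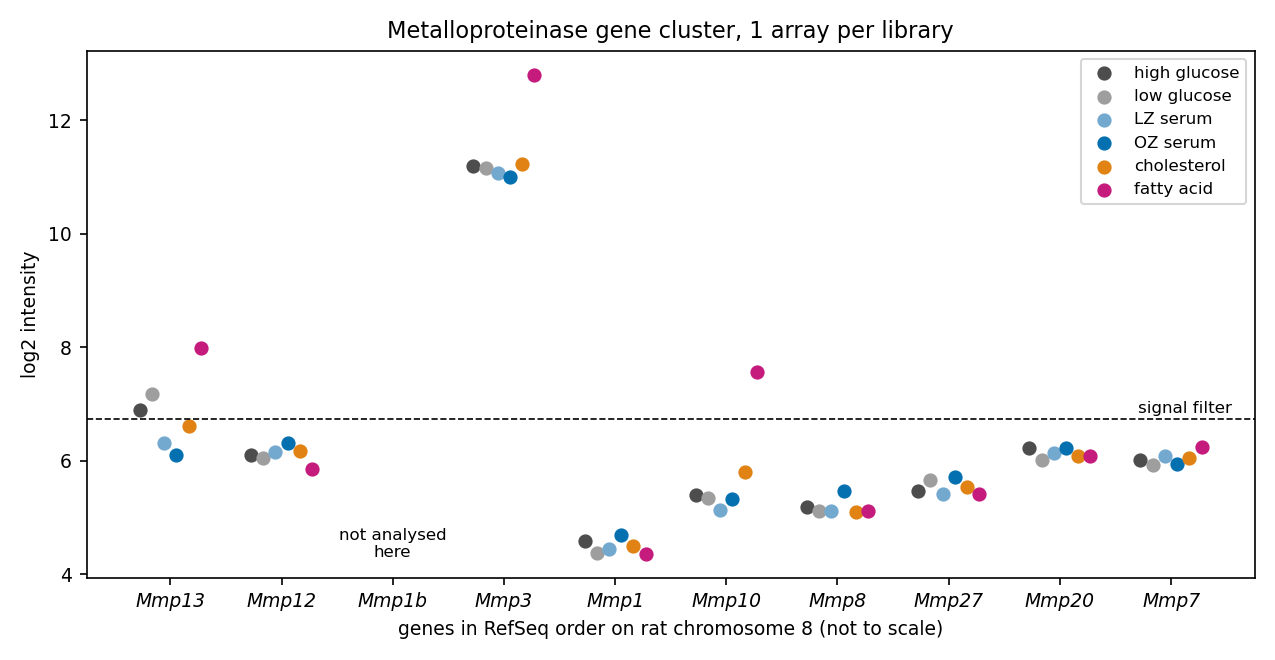
Log2 intensity in each of the 6 libraries for 9 measured genes of the metalloproteinase cluster, in RefSeq order along rat chromosome 8 and not to scale, with the signal filter at 6.74 as a dashed line. Fatty acid is the highest point for Mmp13, Mmp3 and Mmp10, and by a smaller margin for Mmp7 (6.24). The genes that are not members, Mmp7 among them, lie between 4.36 and 6.31 in all libraries. Heights of different genes are read by different probe sets and are not to be compared.

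The gelatinases and the membrane-type enzyme behaved otherwise. Mmp2, or gelatinase A, cuts basement membrane collagen and denatured collagen, and Mmp14, or MT1-MMP, is anchored in the cell membrane and activates the Mmp2 precursor with the help of Timp2. Mmp14 (probe set 17698634) had intensities of 3840 in the high glucose control, 4110 in the low glucose control, 4086 with LZ serum, 3367 with OZ serum, 4582 with cholesterol and 2411 with fatty acid. Cholesterol was the highest library and fatty acid the lowest. The fatty acid difference was -0.67 against high glucose and -0.77 against low glucose in log2, and the cholesterol difference was 0.16 against the nearer control.

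Mmp2 (probe set 17731914) followed the same order at both ends. Its intensity was 9042 in the high glucose control, 8193 in the low glucose control, 8791 with LZ serum, 7965 with OZ serum, 10408 with cholesterol and 6852 with fatty acid. The differences from the nearer control were small, 0.20 with cholesterol and -0.26 with fatty acid in log2, beside 0.14 between the controls. Between the lipid libraries the difference was 1.52-fold for Mmp2 and 1.90-fold for Mmp14, both higher with cholesterol. Likeness of profiles was read as the root mean square difference between log2 values centred on each gene's mean over the 6 libraries, a measure that is small for any genes that vary little. Over all pairs of the 9 members it was smallest for Timp1 and Timp2 (0.10), then for Mmp2 and Timp2 (0.13), and then for Mmp2 with Mmp14 and Timp1 with Timp3 (0.16 each). For Mmp3 and Mmp10, which vary widely, it was 0.24, and for Mmp10 and Mmp14, the least alike pair, 1.09.

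Mmp9, or gelatinase B, is best known from neutrophils and macrophages. Mmp9 (probe set 17768956) had intensities of 148.8 in the high glucose control, 173.4 in the low glucose control, 139.9 with LZ serum, 117.1 with OZ serum, 314.8 with cholesterol and 155.4 with fatty acid. Only cholesterol left the range of the libraries not titled for a lipid, at 1.82-fold above its upper end, and fatty acid lay inside it. The difference was 1.08 in log2 against high glucose and 0.86 against low glucose, so 2-fold was reached against 1 control.

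Because Mmp9 is a leukocyte gene in many tissues, leukocyte markers are given beside it. Of 9 macrophage markers all were measured and 2 passed the filter, Cd68 and Cd14. The summed intensity of the list was 976 to 1239 in the libraries not titled for a lipid, 1819 with cholesterol and 848 with fatty acid. Cd14 made up most of this sum with cholesterol, as it did in the libraries not titled for a lipid. Cd68 was at 8.37 in log2 with cholesterol against 6.77 to 6.91 in those libraries, and Cd14 at 10.13 against 9.01 to 9.62. Ptprc, which encodes the leukocyte common antigen CD45, was at 5.42 with cholesterol against 5.52 to 5.59. The macrophage genes Csf1r, at 6.40 against 6.11 to 6.30, and Adgre1, at 6.05 against 5.63 to 5.89, were slightly above those libraries but below the filter. The rest of the list, Itgam (5.60), Cd163 (5.14), Mrc1 (5.91) and Lyz2 (4.90), lay inside the range of those libraries and below the filter. None of 5 neutrophil markers passed the filter, and their summed intensity was 323 with cholesterol against 312 to 359. The part of other cells in the Mmp9 value was not tested. In bulk RNA of this kind, more cells of a type and more RNA per cell cannot be told apart.

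**Figure D3:**
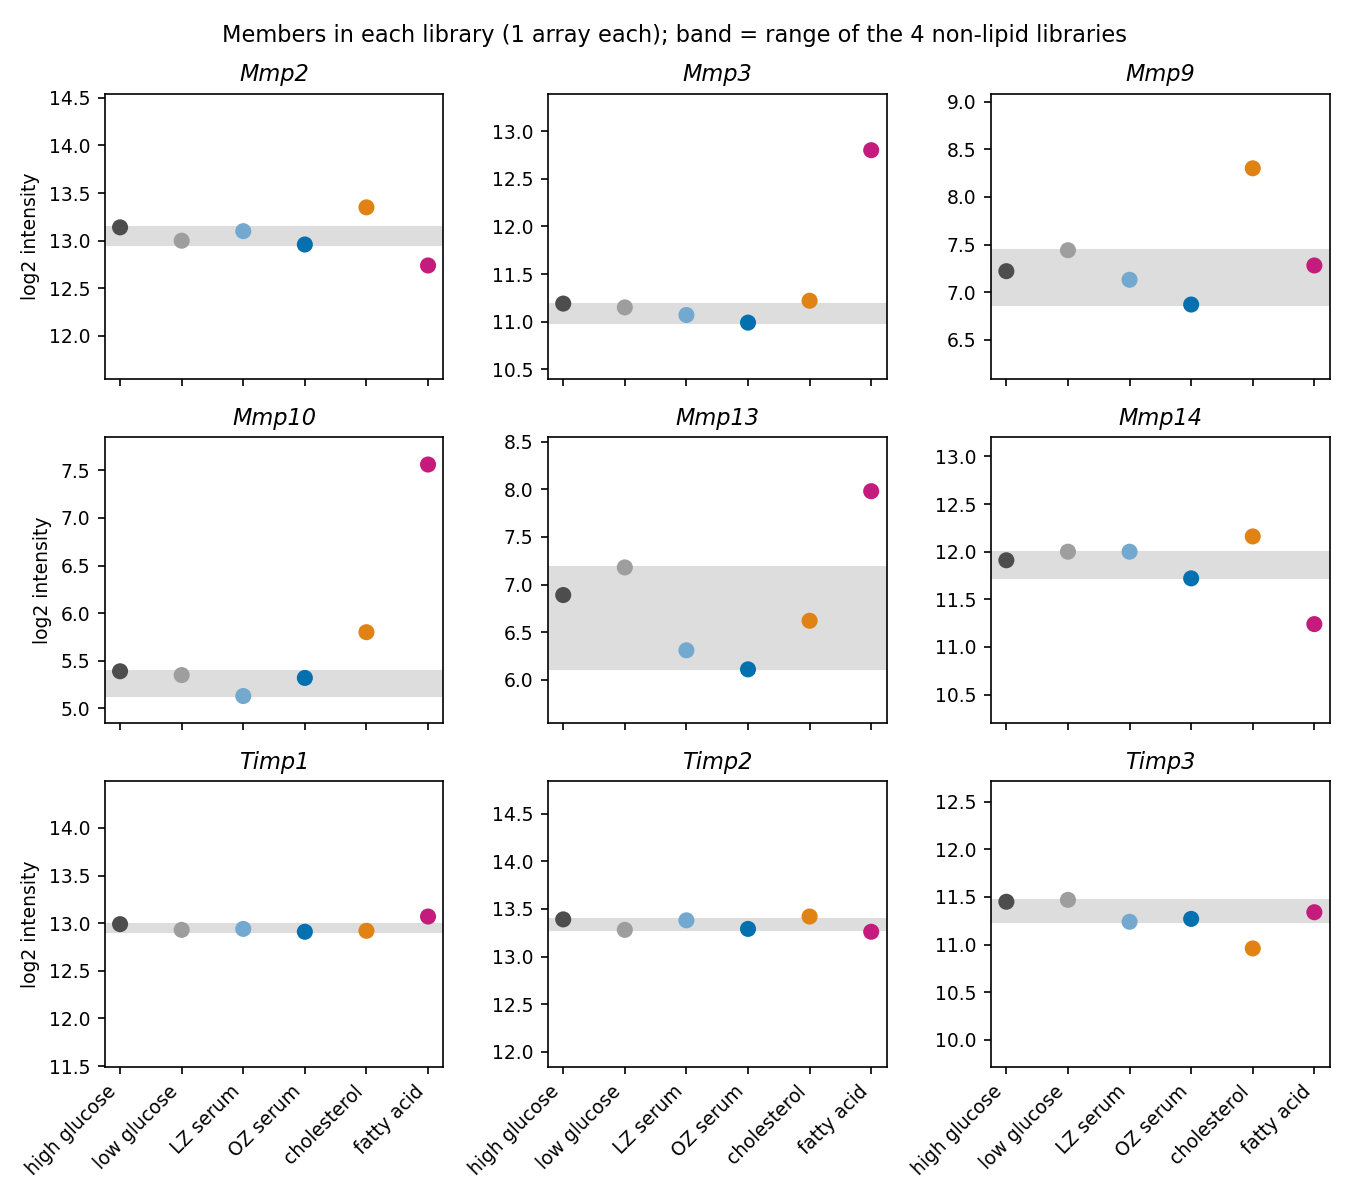
Log2 intensity of each member in each library, 1 array per library, in panels of equal height on the log2 scale; the grey band is the range of the 4 libraries not titled for a lipid. Fatty acid stands above the band for Mmp3, Mmp10 and Mmp13 and below it for Mmp14 and Mmp2, cholesterol stands above it for Mmp9, Mmp10, Mmp2 and Mmp14 and below it for Timp3, and all points of Timp1 and Timp2 lie within 0.16 of each other.

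Timp1 and Timp2 varied little, and Timp3 more. Timp1 is a secreted inhibitor that responds to growth factors and inflammation, Timp2 is the constitutive inhibitor that also takes part in Mmp2 activation, and Timp3 is bound to the matrix and inhibits ADAM proteases as well. Timp1 (probe set 17875665) had intensities of 8120 in the high glucose control, 7807 in the low glucose control, 7838 with LZ serum, 7680 with OZ serum, 7763 with cholesterol and 8588 with fatty acid. For Timp2 (probe set 17663810) they were 10711, 9977, 10624, 9985, 10950 and 9783 in the same order. Both spanned 1.12-fold over the 6 libraries, and only 5.1% (Timp1) and 5.2% (Timp2) of the genes past the filter spanned less. The median span of the genes past the filter was 1.33-fold, and of the 410 genes with a mean log2 of 12 or more it was 1.24-fold. The highest intensity on any array was 18205, and whether bright probe sets were near a ceiling was not tested.

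Timp3 (probe set 17834517) was the inhibitor that varied most, with a span of 0.51 in log2, and 64.7% of the genes past the filter spanned less. Its intensity was 2790 in the high glucose control, 2838 in the low glucose control, 2419 with LZ serum, 2473 with OZ serum, 1991 with cholesterol and 2595 with fatty acid. Cholesterol was the lowest library, 1.40-fold below the nearer control and 1.21-fold below the nearer serum library, and fatty acid lay inside the range of the libraries not titled for a lipid. Both serum libraries were also lower than both controls, by 0.17 in log2 at the least.

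Counted over the members, the comparison of fatty acid with both controls held 1 of the 8 members past the filter at 2-fold, Mmp3, where 2.65% of 11540 genes were counted, 0.641% as higher and 2.01% as lower. Without the filter it held 2 of 9, Mmp3 and Mmp10, where 1.83% of all named genes were counted. For cholesterol against both controls it was 0 of 8, where 1.19% of genes were counted. The lipid comparisons share their controls, so their values are given side by side and not as an agreement. Set directly against each other, the lipid libraries differed at 2-fold in 3 of 8 members, where 2.82% of genes did, 1.92% higher and 0.901% lower with cholesterol. Mmp3 (-1.58) and Mmp13 (-1.36) were lower with cholesterol and Mmp9 (1.02) was higher, and Mmp10, outside the filter, was at -1.76. Mmp13 is in this count only because the fatty acid library, where it was highest, brought it past the filter. Mmp9 was just past the threshold and was under it with quantile scaling (0.98) or with 32 added to each intensity (0.89).

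A looser reading asked whether a lipid library lay outside the range of all 4 libraries not titled for a lipid. With cholesterol 7 of 9 members did, 6 above and 1 below, and with fatty acid 7 of 9 did, 4 above and 3 below. Of all named genes 26.7% lay above and 26.1% below with cholesterol, and 36% above and 27.2% below with fatty acid, so leaving this range was common. Medians showed little as well. Over the 6 metalloproteinases the median difference for fatty acid was 0.57 against high glucose and 0.32 against low glucose, but over the 5 past the filter it was 0.06 and -0.16, since members lay on both sides of 0. Over the 3 inhibitors it was -0.10 and -0.03. The median of all genes past the filter was 0.01 against high glucose, and 0.00 to 2 decimals against low glucose.

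**Figure D4:**
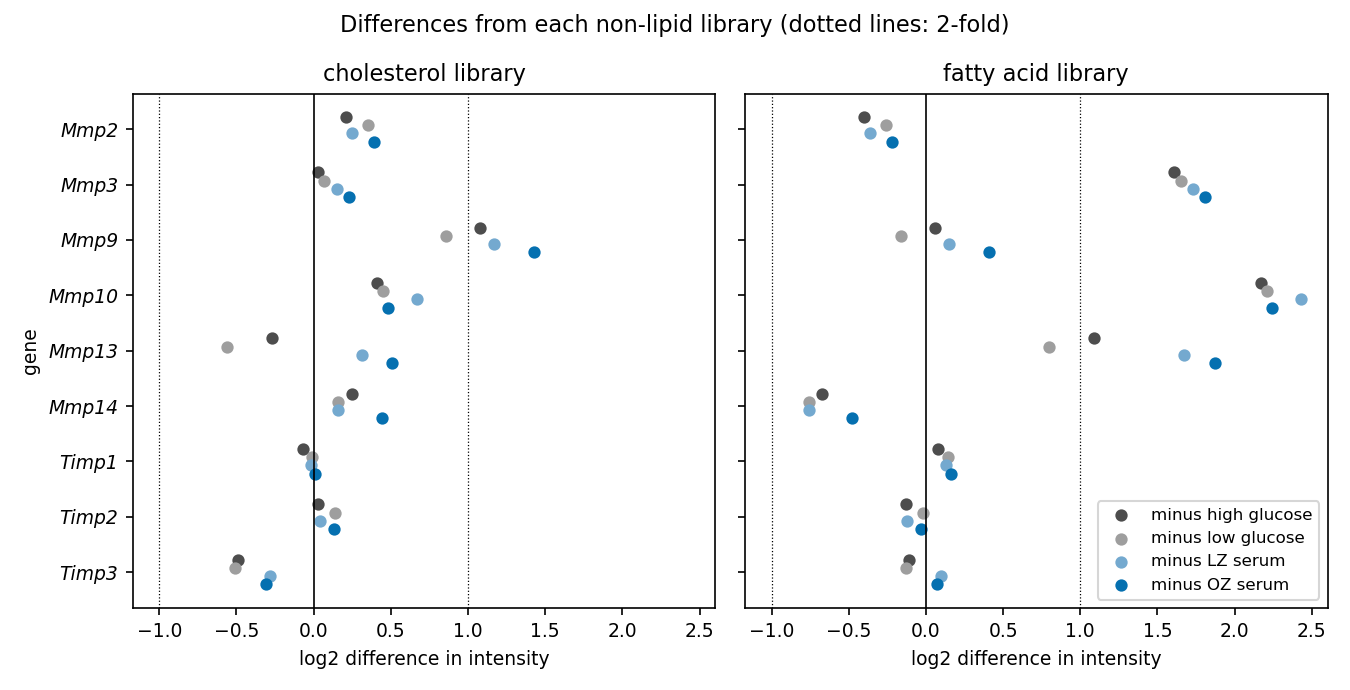
Log2 difference of each member between a lipid library and each of the 4 libraries not titled for a lipid, with dotted lines at 2-fold. All 4 differences of Mmp3 and Mmp10 pass 2-fold with fatty acid, those of Mmp9 with cholesterol lie on both sides of it, and those of Timp1 and Timp2 stay near 0 in both panels.

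The serum libraries and the controls differed little in these genes. None of the 8 members past the filter reached 2-fold between OZ and LZ serum, where 0.026% of genes did, with Mmp14 furthest apart (-0.28) and Mmp9 next (-0.26), both lower with OZ serum. Between high and low glucose controls 0 of 8 did, where 0.355% of genes did, and Mmp13 (-0.29) and Mmp9 (-0.22) were furthest apart, both lower with high glucose. Between both serum libraries and both controls 0 of 8 did, as did 0% of all genes, with Mmp13 at -0.58.

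The rest of the family was read from a list of 18 genes, further metalloproteinases and Timp4, of which 15 were measured and 6 passed the filter. In the fatty acid library 5 of the 6 were lower than both controls and 1 was higher. For this and the next lists, the same shares over all genes past the filter were 39.7% lower and 40.4% higher with fatty acid, and 33.6% lower and 36.3% higher with cholesterol. The largest difference of the list was in Mmp23, a membrane-anchored enzyme of unusual structure, at 11.41 and 11.46 in log2 in the high and low glucose controls, 11.40 with LZ serum, 11.51 with OZ serum, 11.10 with cholesterol and 9.29 with fatty acid. It was 4.38-fold lower with fatty acid than in the nearer control and was the one gene of this list at 2-fold. Mmp28, or epilysin, was at -0.61 and Mmp11, or stromelysin 3, at -0.40. The list's median was -0.40 against high glucose and -0.49 against low glucose with fatty acid, and -0.05 and -0.11 with cholesterol, where none reached 2-fold.

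Genes that activate, anchor or take up metalloproteinases were mostly lower with fatty acid. Of 13 measured genes 12 passed the filter, 8 were lower than both controls, 3 were higher and 1 was neither. Plat, tissue plasminogen activator, reached 2-fold at 3.10-fold lower, and Pcsk6 (-0.95), a proprotein convertase, and Mrc2 (-0.94), a collagen uptake receptor, came next. The uPA receptor gene Plaur (0.70) was among those higher. Furin, the convertase that removes the Mmp14 propeptide, was at 0.40 with cholesterol and -0.34 with fatty acid, the same directions as Mmp14. With cholesterol 4 of the 12 were higher, 3 lower and none at 2-fold, with Pcsk5, another convertase, at -0.61.

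A list of other protease inhibitors and matrix proteins held 7 genes past the filter, and 6 were lower than both controls with fatty acid. With cholesterol 5 were lower and 2 higher. The list is mixed, and not every gene in it, Adamtsl4 (-0.80) for one, encodes a metalloproteinase inhibitor. The matricellular gene Thbs2, whose product helps clear Mmp2, was 3.05-fold lower, and Pcolce, the procollagen C-proteinase enhancer, 2.10-fold lower. Reck, a membrane-anchored inhibitor of several metalloproteinases, and A2m, alpha-2-macroglobulin, were both at -0.78. A2m also varied widely without a lipid, from 7.71 in the high glucose control to 8.63 with LZ serum in log2. It was at -0.91 between OZ and LZ serum. Reck lay between 10.59 and 10.84 in the libraries not titled for a lipid. The exception among the 7 with fatty acid was Tfpi2, a secreted Kunitz-type inhibitor, which was 2.55-fold higher with fatty acid and 2.11-fold higher with cholesterol. Its log2 values were 7.60 and 7.19 in the controls, 7.69 and 7.41 with LZ and OZ serum, 8.68 with cholesterol and 8.95 with fatty acid, so both lipid libraries stood above the rest. Serpine2, or protease nexin 1, was at 0.66 with cholesterol and -0.63 with fatty acid. The list's medians with fatty acid were -0.80 and -0.87.

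Matrix substrates were also lower. Of 15 genes past the filter, 12 were lower than both controls with fatty acid and 5 reached 2-fold, while with cholesterol 11 were lower and 1 reached 2-fold. No gene of the list was higher than both controls with either lipid. The laminin chain Lama4 was 4.23-fold lower with fatty acid and 2.08-fold lower with cholesterol. The basement membrane genes Col4a1 (-1.53), Nid1 (-1.23) and Col4a2 (-1.07) and the fibrillar collagen Col3a1 (-1.05) were the others at 2-fold with fatty acid. Fn1 (-0.04), the fibronectin gene and a stromelysin substrate, differed by less. The summed intensity of 8 mesenchymal progenitor markers moved with these genes: it was 46373 to 48923 in the libraries not titled for a lipid, 42842 with cholesterol and 35868 with fatty acid. Col1a1 is in both the marker list and the substrate list, and without it the sum of the other 7 markers was 34378 to 36491, 32362 with cholesterol and 28372 with fatty acid. The sum of 7 muscle progenitor markers was 5580 to 6242, 5208 with cholesterol and 3322 with fatty acid, and most of it was Ncam1, at 12.26 to 12.43, 12.15 and 11.37 in log2. The sum of the other 6 was 652 to 722, 656 with cholesterol and 685 with fatty acid, inside that range for both lipids. The satellite cell gene Pax7 was higher with fatty acid, at 7.26 against 6.90 to 7.05 in the libraries not titled for a lipid. Des was higher with both lipids, at 7.04 with fatty acid and 7.05 with cholesterol against 6.91 at the most in those libraries. Itga7 went the other way, at 7.47 with fatty acid against 7.55 at the least. Pax7 and Des lay close to the filter. The part of these markers in the differences was not tested. Of 5 keratinocyte markers, cells in which Mmp10 is known, 4 were measured and 1 passed the filter, and the sum was 343 to 368 and 377 with either lipid. The sum hid unlike directions with fatty acid. Krt14, which did not pass the filter, was at 7.03 in log2 with fatty acid against 6.54 to 6.68. Krt1 (5.99 against 6.12 to 6.46) and Krt10 (6.89 against 6.93 to 7.02) were lower, and Ivl was at 6.00 against 5.77 to 6.00.

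Transcription factors with known sites in metalloproteinase promoters were higher on the whole. Of 17 genes past the filter, 12 were higher than both controls and 2 lower with fatty acid, and 15 were higher and 1 lower with cholesterol. Fosl1 and Jun, both AP-1 subunits, were 2.83-fold and 2.35-fold higher with fatty acid. With cholesterol Jun (0.99) and Fosl1 (0.79) did not reach 2-fold, Jun by a narrow margin. Fosl1 was at 8.78 and 9.61 in the high and low glucose controls, 8.77 with LZ serum, 9.03 with OZ serum, 10.40 with cholesterol and 11.11 with fatty acid, so both lipid libraries stood above the others. Ets2 was at 0.81 with fatty acid and 0.18 with cholesterol.

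A list named secreted inducers held 15 cytokines and growth factors, and the direction in which each acts on a given member was not tested. Of these 10 passed the filter, and with fatty acid 3 were higher and 6 lower than both controls. Tgfb2, a transforming growth factor beta, was 2.25-fold lower with fatty acid, and Lif, a cytokine of the interleukin 6 family, was at 0.72. Il6, the interleukin 6 gene, was at 8.73 and 7.61 in the high and low glucose controls, 8.15 with LZ serum, 8.33 with OZ serum, 8.18 with cholesterol and 6.95 with fatty acid. Fatty acid was thus the lowest library, at -0.65 against the nearer control, and Il6 was 2.34-fold higher with cholesterol than with fatty acid. With cholesterol Tgfb2 (-0.84) and Hbegf (-0.81), an EGF receptor ligand, were lowest. Il1a, which encodes interleukin 1 alpha and did not pass the filter, is named after its values were seen. It was at 6.16 and 6.63 in the controls, 6.29 with LZ serum, 6.08 with OZ serum, 6.10 with cholesterol and 8.20 with fatty acid, 2.97-fold above the nearer control. Like Mmp10, it was above the filter in the fatty acid library alone.

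**Figure D5:**
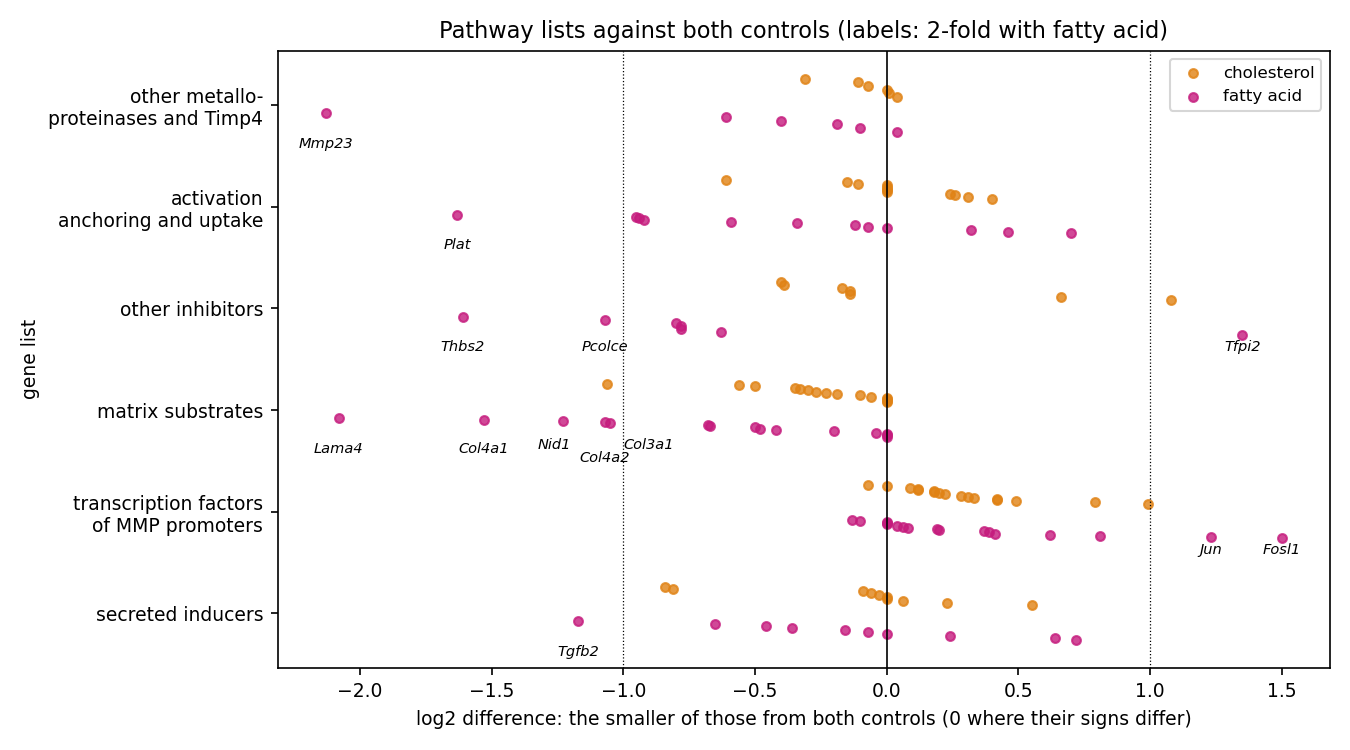
Log2 difference from the nearer control for each gene past the filter in 6 pathway lists, 1 point per gene and lipid, drawn at 0 where the controls lie on opposite sides. Genes at 2-fold with fatty acid are named; with cholesterol Tfpi2 (1.08) and Lama4 (-1.06) pass the dotted lines.

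Profiles most like those of the members were sought among 861 genes past the filter that spanned at least 2-fold over the 6 libraries. The measure was the root mean square difference between log2 values centred on each gene's mean, over 6 libraries, so 1 outstanding library weighs heavily in it. For Mmp3 the nearest genes were Creld2 (0.14), Nipal1 (0.14) and Gdnf (0.15). Each was highest with fatty acid, at 10.64, 9.03 and 10.19 in log2. For Mmp9 they were Xylt1 (0.12), Rnf145 (0.13) and Uap1l1 (0.13), highest with cholesterol at 8.83, 11.86 and 10.01. For Mmp13 they were Pgf, Anxa8 and Cdc42ep5, all at 0.24 and so less alike. Mmp13 and Pgf passed the filter only through the fatty acid library, where both were highest, so the filter favoured their likeness. The other members were outside this search: Mmp10 did not pass the filter, and Mmp2, Mmp14 and the inhibitors spanned less than 2-fold.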

How the data were processed

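The data are 6 arrays, 1 per group, of total RNA. The authors deposited 1 intensity per probe set and array, linear by the look of the values. The kit, biotin label and array type are per the labels' protocols. How probes were summarised, background-corrected and normalized is not given in the sources used here. Nearly equal medians mean that a difference in total RNA between cultures could not be seen. No offset was used before log2. Names came from the platform annotation, updated through RefSeq. It gives 1 gene for 18511 probe sets and several for 575, and 291 genes had several probe sets, of which the brightest was used. The members, gene lists and rules were chosen with earlier results of these data known. Named genes were the 9 members, list genes at 2-fold in a lipid comparison or else the top 3 of a list, and the 3 most similar profiles per eligible member. Genes outside this rule that the text uses for a point are single list genes named for their role. The rule for counting genes was checked on simulated data. Alternatives were quantile, median and cyclic loess scaling, an offset of 32, no filter, a stricter filter (75th percentile, log2 8.68), averaged probe sets, a 1.5-fold threshold and other reference libraries. The number of arrays limits the precision. Promoter sequences and gene order are from RefSeq, GRCr8. Tools were R 4.3.3 with limma 3.58.1 for scaling, and Python 3.11.15 (numpy 2.4.6, pandas 2.3.3, matplotlib 3.10.9).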

Additional observations from a re-analysis of the deposited data

How the results depend on the processing

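No paired analysis was possible because each group is 1 array and the labels give no replicate numbers. Of the 522 values of single members under the alternatives, 513 stayed on the same side of 2-fold, 7 moved past the threshold in use and 2 fell under it, and no counted member changed sign. The count of members at 2-fold for cholesterol against both controls was 0, and 1 (Mmp9) against high glucose alone or at 1.5-fold. For fatty acid it was 1, and 2 without the filter (with Mmp10), 2 against high glucose alone (with Mmp13) and 3 at 1.5-fold. For cholesterol against fatty acid it was 3, and 1 with the stricter filter and 5 at 1.5-fold. Over all genes, cholesterol counted 137 genes, and 232 against high glucose alone, 216 against low glucose alone and 392 at 1.5-fold. Fatty acid counted 306, and 472 against high glucose alone and 1044 at 1.5-fold. The direct comparison of the lipids counted 325, and 1354 at 1.5-fold. OZ against LZ serum counted 3, and 1 with the offset or the stricter filter, 15 without a filter and 30 at 1.5-fold. The controls differed in 41 genes, and 312 at 1.5-fold. Serum against controls counted 0, and 2 at 1.5-fold, 2 with OZ serum alone and 13 against low glucose alone. The median over all genes was furthest from 0, at -0.101, for OZ serum against low glucose after median centring. With no replicates, the differences of Mmp14, Mmp2 and Timp3, all under 2-fold against both controls, have no error to be set against. Mmp9, Mmp13 and Mmp10 are the members whose signal lay near or below the filter.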
